A study of Mus musculus with 72 samples.

Results

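Transgenic mouse leukaemias driven by the fusion proteins PML/RARA and PLZF/RARA were compared at their treated end state, 12 h after retinoic acid (RA), to see which differences between them remained under treatment and which appeared with it. The comparison holds 12 of the 72 bone marrow arrays of the series, 8 of PML/RARA with RA and 4 of PLZF/RARA with RA, all chosen by their labels and all in batch 1. They were read against the untreated arrays of the same time and batch, 4 of PML/RARA and 2 of PLZF/RARA. Every group is labelled transgenic and WT in background and came from frozen tumour samples of bone marrow, from which total RNA was put on Affymetrix Mouse Gene 1.0 ST arrays. The labels used here give no dose or route of RA, no mouse strain, no promoter of the transgenes, and no animal or leukaemia behind an array, so all p-values measure the spread between these arrays, which may be technical.

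RA is the ligand of the retinoic acid receptors, transcription factors that bind DNA as partners of RXR and that hold corepressors until ligand arrives. In acute promyelocytic leukaemia (APL) the receptor RARA is fused to PML, the protein that builds nuclear bodies, or more rarely to PLZF, a zinc finger repressor encoded by Zbtb16. RA releases corepressors from PML/RARA and leads to degradation of the fusion, and promyelocytes then mature towards neutrophils. PLZF/RARA carries a further corepressor contact in its PLZF part, and patients with this fusion respond poorly to RA.

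Receptors of this family bind direct repeats of a short sequence of 6 bases. The 250 bases before the annotated gene start are shown for 3 genes on whose response to RA the results turn. The first, Cyp26a1, degrades RA and was high in both leukaemias under RA. The second, F3, was high only on treated PML/RARA arrays of the 4 groups. The third, Stra8, is a germ cell gene named for its response to RA. Of the 4 groups, its values were highest on the treated PLZF/RARA arrays, where most still lay below the median of all probe sets. The sequences are from RefSeq on GRCm38.p6, all on the plus strand, at chr19:37697558-37697807, chr3:121723287-121723536 and chr6:34920698-34920947, and capitals mark a direct repeat.
Cyp26a1: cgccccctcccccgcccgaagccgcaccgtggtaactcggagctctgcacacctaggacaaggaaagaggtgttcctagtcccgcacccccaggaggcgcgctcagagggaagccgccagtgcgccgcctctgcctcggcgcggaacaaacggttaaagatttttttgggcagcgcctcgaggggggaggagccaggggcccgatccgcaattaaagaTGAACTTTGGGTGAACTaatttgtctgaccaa
F3: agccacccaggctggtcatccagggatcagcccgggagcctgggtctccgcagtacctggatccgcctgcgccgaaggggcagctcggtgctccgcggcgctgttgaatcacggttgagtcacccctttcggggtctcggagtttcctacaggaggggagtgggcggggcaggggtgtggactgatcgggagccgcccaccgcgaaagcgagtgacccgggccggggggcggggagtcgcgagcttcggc
Stra8: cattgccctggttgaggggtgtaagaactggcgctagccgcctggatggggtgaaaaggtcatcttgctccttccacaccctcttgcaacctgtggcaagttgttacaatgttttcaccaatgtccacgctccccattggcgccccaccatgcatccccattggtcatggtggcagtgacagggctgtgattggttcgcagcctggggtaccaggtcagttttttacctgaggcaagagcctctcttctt

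The search covered the sites AGGTCA and AGTTCA in any pair, spaced by 1, 2 or 5 bases (DR1, DR2 and DR5), on both strands, with overlapping matches counted once per window, in windows that also take in 50 bases after the start. The Cyp26a1 window held 1 DR5, at position -32 from the gene start and oriented opposite to the gene. The windows of F3 and Stra8 held none of these spellings. Such repeats were rare everywhere, in 16 of the 15614 tested genes with a window (0.102%), in 6 of 5916 genes that differed between the treated leukaemias (0.101%), and in none of the 202 genes with a window whose difference appeared under RA. Of the 101 genes named in this text with values, 79 had a window and 2 held a repeat, Cyp26a1 and the platelet chemokine gene Ppbp.

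Values are the authors' log2 expression values. The median over all probe sets was 6.56 to 6.74 on the 18 arrays at 12 h, and whether values below it are above background was not tested, so differences from genes that low are given on the log2 scale only and can understate a change. Arrays of the same treated group correlated at 0.991 to 0.997 for PML/RARA and 0.992 to 0.996 for PLZF/RARA, and arrays of different treated groups at 0.964 to 0.978. The promyelocyte proteases and peroxidase were abundant on all arrays: Mpo lay between 12.41 and 13.43 on the 18 arrays at 12 h. Treated PML/RARA arrays 1 and 2 stood apart from the other 6 of their group, with a mean correlation to the untreated PML/RARA arrays of 0.990 against 0.981 to 0.985, and with lower values of F3 and Cyp26a1 (below). Without them the treated difference was called in 7846 genes in place of 7448, but the difference in RA effect in 987 in place of 585. Among the treated PLZF/RARA arrays, the mean level of 26 interferon response genes ran from 7.33 on array 1 to 8.73 on array 4.

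The numbers in the array titles form 2 sets of consecutive numbers per fusion at 12 h, each with treated and untreated arrays, and the labels do not say what a set is. The difference between sets among treated arrays correlated with that among untreated arrays, at 0.447 across genes in PML/RARA and 0.389 in PLZF/RARA. With the set as a fixed replicate block, 715 differences in RA effect were called, 564 of the 585 among them. No set holds both leukaemias, so for the treated difference set and fusion cannot be told apart in such a fit. With the set as a random replicate block the treated difference was called in 6281 genes, and 18 genes were reversed in place of 37.

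Under RA, 7448 of 19938 genes differed between the leukaemias (37.4% of all genes, limma with Benjamini-Hochberg adjusted p below 0.05), 3874 with higher values in PML/RARA (19.4%) and 3574 with lower values (17.9%). The difference was at least 1.5-fold in 2313 genes (11.6%) and at least 2-fold in 827. The 8 PML/RARA and 4 PLZF/RARA values did not overlap in 4350 genes (21.8%). Without treatment 3464 genes differed (17.4%), 1611 higher (8.08%) and 1853 lower (9.29%) in PML/RARA, on 4 against 2 arrays, with a median standard error of 0.13 in place of 0.09, so that comparison had less precision. RA changed 4306 genes in PML/RARA (21.6%) and 803 in PLZF/RARA (4.03%). These counts rest on 8 against 4 arrays and on 4 against 2, so the PLZF/RARA count had less precision. At 1.5-fold or more they were 1215 (6.09%) and 483 (2.42%). The RA effect itself, treated minus untreated, differed between the leukaemias in 585 genes (2.93%), higher in PML/RARA in 355 (1.78%) and lower in 230 (1.15%). With the arrays quantile normalized again, 50.1% of the calls were higher in PML/RARA in place of 60.7%.

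Each gene was then placed in a class. A difference remained when it was called with and without RA in the same direction, which held for 2686 genes (13.5% of all genes, 36.1% of the treated calls and 77.5% of the untreated calls). It appeared in 268 genes (1.34%), called under RA and not without it, with a called difference in RA effect in the same direction. It closed in 144 genes (0.722%), called only without RA and with a called difference in RA effect in the opposite direction, and it was reversed in 37 genes (0.186%), called in both states with opposite signs. A further 4457 genes (22.4%) differed under RA but could be placed neither as remained nor as appeared, and 3671 of them had an untreated estimate of the same sign. Of the 827 genes that differed at least 2-fold under RA, 678 (82%) remained, 52 appeared, 97 were not settled and none was reversed. Most of the large differences between the treated leukaemias were thus also called without RA. The classes leaned on the 2 untreated PLZF/RARA arrays. Without array 2 of them, 200 differences in RA effect were called in place of 585, and 67 genes appeared, 59 closed and 17 were reversed. Without array 1 of them, 1609 genes remained in place of 2686.

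**Figure D1:**
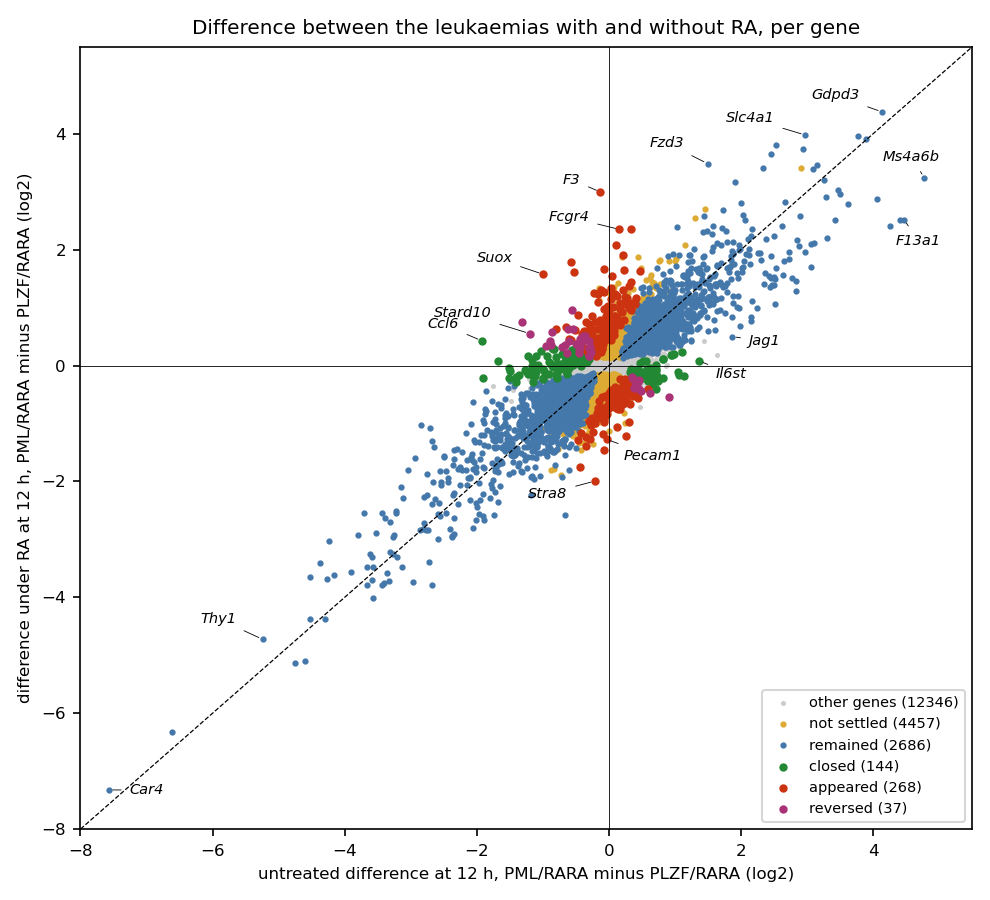
Each point is 1 of 19938 genes, with the log2 difference between PML/RARA and PLZF/RARA without treatment at 12 h on the x axis and under RA at 12 h on the y axis, coloured by class. The dashed line marks equal differences. Genes that remained (2686) lie along it from Car4 at -7.32 to Gdpd3 at 4.38 under RA, and the 268 that appeared lie above and below the middle of the plot, with F3 at 3.00 and Stra8 at -1.99.

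Genes of the retinoid response split into those that reached like levels in the treated leukaemias and those that did not. Cyp26a1 had values of 8.76, 9.94, 8.06 and 9.80 on the treated PLZF/RARA arrays and of 7.54, 9.70 and 10.57 (lowest, median and highest) on the 8 treated PML/RARA arrays, against 5.05 to 5.73 on the 6 untreated arrays. Every treated array of both leukaemias was above every untreated one, and the treated groups overlapped. RA raised it by 3.90 in PML/RARA (adjusted p = 6.18e-07) and by 3.97 in PLZF/RARA (adjusted p = 0.000797), and the treated difference was 0.24 ± 0.53 (SE; 95% interval -0.83 to 1.31; adjusted p = 0.75). It became 0.85 without treated PML/RARA arrays 1 and 2 (adjusted p = 0.14). The retinaldehyde reductase gene Dhrs3, another RA target, rose in both as well, by 2.27 and 1.90, and kept a lead in PML/RARA of 1.52 ± 0.19 (adjusted p = 5.01e-08; 1.15 without RA).

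Stra8 went the other way. Its values were 6.04, 7.44, 5.71 and 6.30 on the treated PLZF/RARA arrays, 4.61 and 4.55 on the untreated ones, 4.18 to 4.60 on the untreated PML/RARA arrays and 4.16 to 4.54 on the treated ones. The 4 treated PLZF/RARA arrays were the high ones, with no overlap with any other group. Arrays 1, 3 and 4 of them lay below the array medians, as did all other groups, and Stra8 was not in the fit without the 25% of genes with the lowest mean. The treated difference was -1.99 ± 0.19 (adjusted p = 1.19e-10), and the RA effects differed by -1.78 (adjusted p = 0.00118). The transcriptional repressor gene Hic1, an RA target in other cells, was higher in treated PML/RARA by 1.88 ± 0.35 (adjusted p = 4.44e-05) with no overlap, but its difference in RA effect of 1.44 missed the threshold (adjusted p = 0.22).

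Of 17 RA target genes measured, 4 were higher and 2 lower in treated PML/RARA (19.4% and 17.9% of all genes), with a median difference of 0.18 against 0.06 over all genes. Without RA the counts were 4 and 2, with a median of 0.02.

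The receptor genes and the fusion partners also differed. Pml, the nuclear body gene, had treated values of 10.62, 10.96 and 11.06 (lowest, median and highest) in PML/RARA and of 9.98, 10.25, 10.15 and 10.69 in PLZF/RARA. Its untreated values were 9.80, 9.76, 9.62 and 9.73 in PML/RARA and 9.70 and 10.08 in PLZF/RARA. The treated groups overlapped only through PLZF/RARA array 4 and PML/RARA arrays 1 and 2. The treated difference was 0.63 ± 0.11 (adjusted p = 2.16e-05; 0.72 without PML/RARA arrays 1 and 2) and the difference in RA effect 0.80 (adjusted p = 0.0167), so the lead of PML/RARA appeared under RA. Rarg, a retinoic acid receptor that is itself an RA target, was higher in treated PML/RARA by 0.61 ± 0.13 (adjusted p = 0.000384), with a difference in RA effect of 0.69 (adjusted p = 0.11).

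Zbtb16, which encodes PLZF, was lower in PML/RARA by 0.81 without RA and by 1.72 ± 0.14 under it (adjusted p = 1.04e-11), and the widening of 0.91 was called (adjusted p = 0.0394). Its treated values were 9.71, 10.15, 9.54 and 9.76 in PLZF/RARA and at most 8.52 in PML/RARA. Rara was lower in PML/RARA by 1.09 without RA and by 0.52 ± 0.09 with it (adjusted p = 2.11e-05), so this difference narrowed. Whether the probes for Pml, Zbtb16 and Rara also read the transgenes was not tested.

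The largest differences that remained were lower in PML/RARA. Car4, a membrane-bound carbonic anhydrase, had treated values of 12.88, 12.27, 12.90 and 12.93 in PLZF/RARA and of 5.27, 5.42 and 5.57 (lowest, median and highest) in PML/RARA. Its untreated values were 12.93 and 12.92 against 5.27 to 5.46. The 2 leukaemias were thus as far apart without RA as with it, at -7.57 and -7.32 ± 0.09 (adjusted p = 9.93e-36), with PML/RARA below the array medians. Thy1, a surface glycoprotein of T cells and some progenitors, was 26.4-fold lower in treated PML/RARA, with 11.58, 11.80, 11.74 and 12.07 in PLZF/RARA against 6.83 to 7.28. The groups were also apart for Cyp11a1, the side-chain cleavage enzyme of steroid synthesis, and for the matricellular protein gene Ccn3, both below the array medians in treated PML/RARA. In bulk marrow, fewer cells that express such a gene and less RNA per cell cannot be told apart.

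On the PML/RARA side the largest was Gdpd3, a lysophospholipase gene, at 11.96, 11.98 and 12.23 in treated PML/RARA (lowest, median and highest) against 7.40, 7.85, 7.66 and 7.77, a 20.8-fold difference (4.38 ± 0.11, adjusted p = 1.14e-25; 4.14 without RA). Ube2l6, which encodes the conjugating enzyme for the interferon-induced modifier ISG15, was 10.7-fold higher (3.42 ± 0.18, adjusted p = 7.93e-17). Bcl6, a repressor of germinal centre and myeloid genes, and Cebpd, a C/EBP factor of late granulopoiesis, were higher by 1.93 ± 0.15 (adjusted p = 1.96e-12) and 1.49 ± 0.12 (adjusted p = 1.62e-12). Genes lower in PML/RARA in both states included the antiapoptotic gene Bcl2, at -1.07 with and without RA. The cyclin gene Ccnd2 was at -2.02 without RA and -1.83 with it. The p53 and p63 target Perp was at -2.05 and -2.81. Its treated PML/RARA values were 8.81 and 8.79 on arrays 7 and 8, which form a number set, and 6.97 to 7.74 on the others, and its untreated ones were 10.11 and 9.65 in that set and 8.03 and 7.98 in the other. The difference remained with the random replicate block. The Notch feedback gene Nrarp was at -1.57 and -1.42. The differences in RA effect of these 6 named regulators were not called.

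The called genes of the interferon response list were all higher in PML/RARA, and 19 were in the class that remained. Of 26 measured, 19 were higher in treated PML/RARA and none was lower (19.4% and 17.9% of all genes), with a median difference of 0.97. Without RA, 20 were higher and none was lower, with a median of 1.39. No member had a called difference in RA effect, whose median over the list was -0.48. With the random replicate block 4 members were called as lower in PML/RARA, and with quantile normalization 3. The double-stranded RNA sensor gene Oas1a had treated values of 6.98, 7.59, 7.56 and 7.47 in PLZF/RARA and of 9.80, 9.98 and 10.12 (lowest, median and highest) in PML/RARA. It rose with RA in both, by 0.73 and 1.05, and the treated groups stayed apart by 2.58 ± 0.13 (5.97-fold; adjusted p = 7.46e-18). Zbp1, a sensor of Z-form nucleic acids, showed the same order, with 7.63, 8.56, 8.52 and 8.95 against 10.04 to 10.47 (1.82 ± 0.16, adjusted p = 1.62e-11).

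The mean level of the interferon genes was even in treated PML/RARA, from 9.15 to 9.34, and uneven in treated PLZF/RARA, at 7.33, 8.11, 8.24 and 8.73. All 4 lay above the untreated PLZF/RARA arrays at 6.86 and 6.94. Without PLZF/RARA array 1, which had the lowest level, 18 genes were higher and 1 was lower under RA, and the RA effect was called as lower in PML/RARA in 5 members. RA raised 15 of the 26 genes in PML/RARA and 17 in PLZF/RARA (9.88% and 2.46% of all genes). It lowered none in either (11.7% and 1.57% of all genes).

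**Figure D2:**
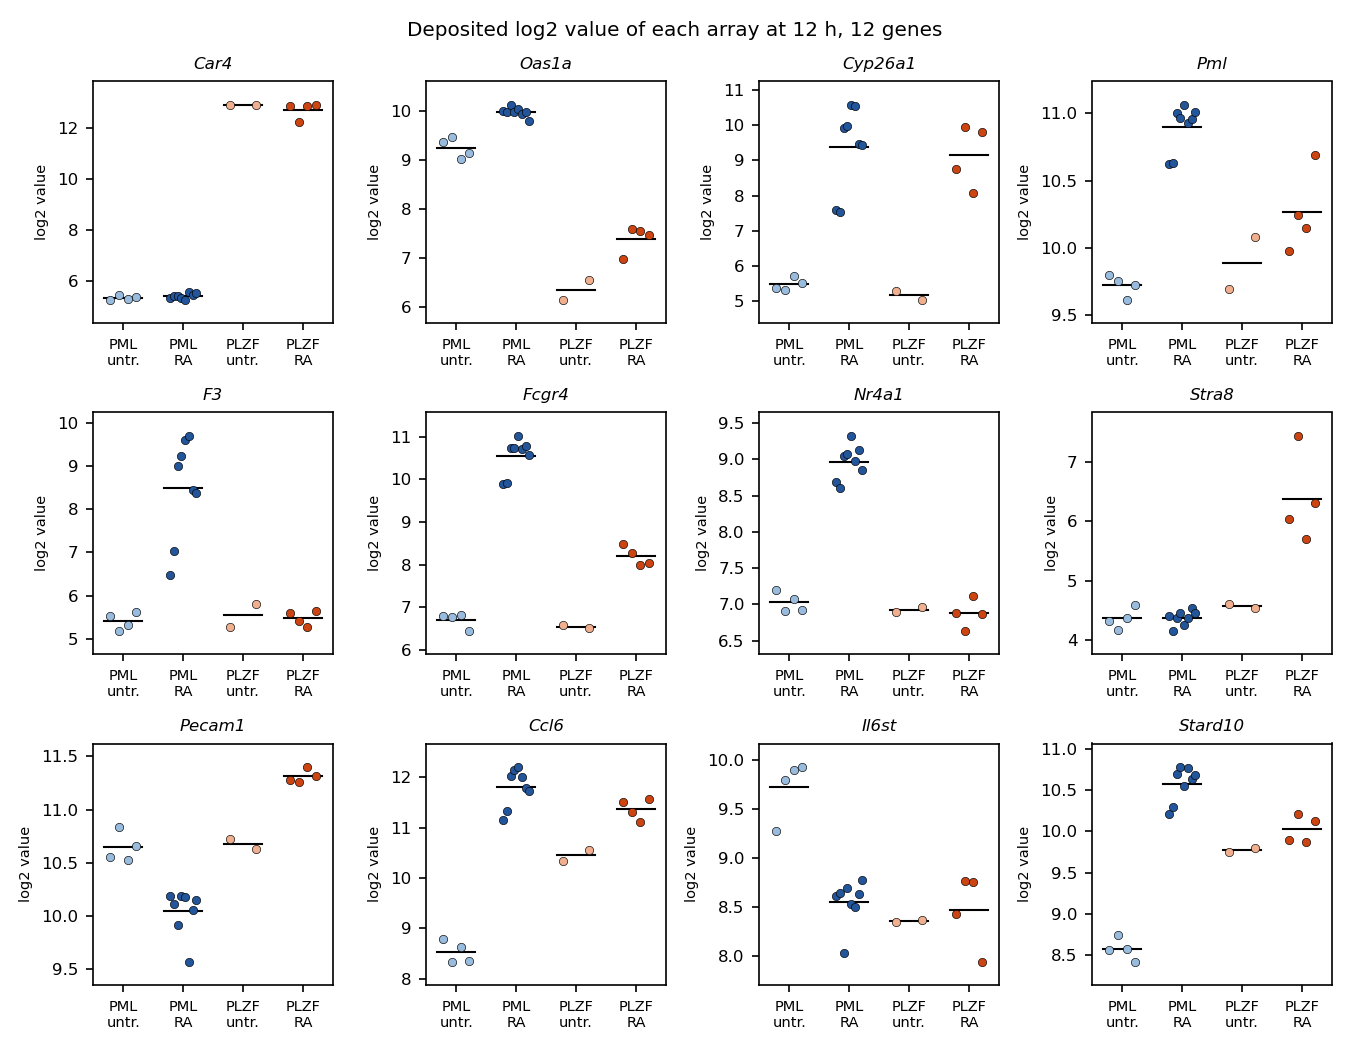
Deposited log2 values of 12 genes on the 18 arrays at 12 h, 1 point per array, by fusion and treatment (4 untreated and 8 treated PML/RARA arrays, 2 untreated and 4 treated PLZF/RARA arrays); horizontal bars are group means, and each panel has its own y axis. Car4 and Oas1a differ with and without RA, F3, Fcgr4 and Nr4a1 separate on the treated PML/RARA arrays, Stra8 on the treated PLZF/RARA arrays, and Ccl6, Il6st and Stard10 differ most without RA.

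Among genes that remained, 36 were further apart under RA and 97 were closer, by the called difference in RA effect. Fzd3, a Wnt receptor gene, had untreated values of 7.09, 6.81, 6.26 and 6.28 in PML/RARA and 8.29 to 9.41 under RA, while PLZF/RARA stayed at 5.01 to 5.86. The difference widened from 1.5 to 3.49 ± 0.19 (adjusted p of the difference in RA effect = 0.000586). C4a, a complement component gene, widened in the other direction, since it rose by 1.22 in PLZF/RARA (adjusted p = 8.75e-05) and by 0.11 in PML/RARA (adjusted p = 0.70), from -2.68 to -3.79.

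Several of the genes that came closer fell in PML/RARA. F13a1, the coagulation factor XIII subunit of monocytes and platelets, had untreated values of 12.40, 12.67, 12.59 and 12.67 in PML/RARA and treated values of 10.28, 10.74 and 11.45 (lowest, median and highest). In PLZF/RARA the treated values were 8.69, 9.21, 8.16 and 7.08. The treated groups did not overlap, yet the difference dropped from 4.47 to 2.52 ± 0.23 (adjusted p of the difference in RA effect = 0.00484). Ms4a6b, a membrane protein gene of lymphoid and myeloid cells, went from 4.78 to 3.25, the granulocyte colony-stimulating factor receptor gene Csf3r from 2.54 to 1.68, and the Notch ligand gene Jag1 from 1.87 to 0.50, each with a called fall in PML/RARA (1.15, 0.80 and 1.1). The haptoglobin gene Hp came closer as it rose by 0.63 in PLZF/RARA (adjusted p = 0.00645), and the mucin gene Muc13 as it fell by 0.78 there (adjusted p = 0.00411).

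Of the 268 differences that appeared, the largest by log2 difference was F3, which encodes tissue factor, the starter of the clotting cascade that underlies the coagulopathy of APL. Its treated values were 6.47, 8.73 and 9.69 (lowest, median and highest) in PML/RARA and 5.59, 5.42, 5.28 and 5.64 in PLZF/RARA. Untreated values were 5.53, 5.19, 5.32 and 5.63 against 5.28 and 5.81. All 8 treated PML/RARA arrays were above all other arrays, and arrays 1 and 2 were the lowest of them. The treated difference was 3.00 ± 0.42 (adjusted p = 4.76e-07), against values below the array medians, or 3.58 without those arrays, and the difference in RA effect 3.13 (adjusted p = 0.0122). In PLZF/RARA the RA effect on F3 was -0.06 (adjusted p = 0.97). Without untreated PLZF/RARA array 2, the genes F3, Il1f9, Itgb2, Suox, Pml, Slc6a9, Kit, Dnmt3b and Mthfd1l lost their place among the differences that appeared, while Fcgr4, Nr4a1, C1ra, Ccrl2, Klf2, Stra8 and Pecam1 kept it in all 18 fits that left out 1 array.

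Genes of phagocytes were among the others that appeared. Fcgr4, an activating Fc receptor gene, was at 9.89, 10.72 and 11.02 in treated PML/RARA and at 8.48, 8.27, 7.98 and 8.04 in treated PLZF/RARA, against 6.45 to 6.83 on all untreated arrays. It rose in both, by 3.84 and by 1.65 (adjusted p = 2.01e-15 and 0.000332), and the leukaemias parted by 2.35 ± 0.20 (adjusted p = 1.79e-11). Itgb2, the common chain of the leukocyte integrins, behaved in the same way, with RA effects of 2.03 and 1.21 and a treated difference of 1.07 ± 0.12 (adjusted p = 5.05e-09). The interleukin 36 gene Il1f9 and the chemerin receptor gene Ccrl2 differed under RA by 2.35 ± 0.29 (adjusted p = 3.90e-08) and 1.62 ± 0.24 (adjusted p = 1.21e-06), on rises of 3.24 and 3.11 in PML/RARA. In PLZF/RARA the estimates for the last pair were 1.23 and 0.97 and were not called (adjusted p = 0.085 and 0.11). For Fcgr4 and Itgb2 the treated difference was one of degree, with a called rise in each leukaemia. Of 23 chemokine and interleukin 1 family genes, 10 were higher and 3 lower in treated PML/RARA (19.4% and 17.9% of all genes), with a median of 0.25. Of 14 coagulation and fibrinolysis genes 8 were higher and 1 was lower, with a median of 0.28, and without treated PLZF/RARA array 4 or with the random replicate block 5 were higher. The counts without RA were 4 and 3 for each list.

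The whole list of phagocyte oxidase and Fc receptor genes had 7 of 10 members higher and 2 lower in treated PML/RARA (19.4% and 17.9% of all genes), with a median of 0.42, against 1 and 2 without RA and a median of 0.02. The RA effect was called as higher in PML/RARA in 3 members (1.78% of all genes) and as lower in none. Ncf1 and Cybb, subunits of the oxidase that makes superoxide, were higher by 1.01 ± 0.17 (adjusted p = 1.69e-05) and 0.98 ± 0.10 (adjusted p = 1.59e-09), and the difference in RA effect of Ncf1, 1.04, sat at the threshold (adjusted p = 0.051; 0.0455 with the random replicate block). Fcgr1, the high-affinity Fc receptor gene, was lower by 1.36 ± 0.13 (adjusted p = 3.46e-10). On the same arrays the monocyte and macrophage markers had 6 of 12 members higher and 2 lower in PML/RARA, and the range of their mean level was 8.76 to 9.12 in treated PML/RARA and 8.52 to 8.70 in treated PLZF/RARA. Their part in the result was not tested.

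A further set rose only in PML/RARA by the called RA effects, with called differences in that effect. Nr4a1, an orphan nuclear receptor and immediate early gene, was at 8.60, 9.02 and 9.32 in treated PML/RARA and at 6.88, 6.64, 7.11 and 6.87 in treated PLZF/RARA, where the 6 untreated arrays lay between 6.89 and 7.21. The separation of 2.09 ± 0.19 (adjusted p = 4.66e-11) thus came with an RA effect of 1.93 in PML/RARA (adjusted p = 8.83e-10) and of -0.05 in PLZF/RARA (adjusted p = 0.95). Klf2, a zinc finger factor of quiescence, and the complement protease gene C1ra had the same pattern, with treated differences of 1.24 ± 0.10 (adjusted p = 4.83e-12) and 1.91 ± 0.15 (adjusted p = 1.48e-12). Of 20 immediate early and Nr4a genes, 6 were higher and 2 lower in treated PML/RARA (19.4% and 17.9% of all genes), with a median of 0.15.

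Suox and Slc6a9 were less firm members of this class. Suox, sulfite oxidase, had treated PML/RARA values of 8.23, 10.07 and 10.55, and the lowest lay inside the treated PLZF/RARA range of 7.96 to 8.50. Its difference was 1.58 ± 0.33 (adjusted p = 0.000214) and its untreated difference -0.99 (adjusted p = 0.16). With untreated arrays of 6 h added, or without treated PML/RARA arrays 1 and 2, it was reversed instead. The glycine transporter gene Slc6a9 differed by 1.80 ± 0.35 (adjusted p = 0.000107), and 14 of 18 fits that left out 1 array kept it in this class. It also serves red cell precursors, whose markers were higher in treated PML/RARA (below), and their part in the result was not tested.

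The differences that appeared with lower values in PML/RARA, 108 of the 268, included Pecam1 and Kit. Pecam1, an adhesion receptor of leukocytes and endothelium, was at 11.28, 11.26, 11.40 and 11.32 in treated PLZF/RARA and at 9.57, 10.13 and 10.19 in treated PML/RARA, with 10.52 to 10.84 on all 6 untreated arrays. RA moved it in opposite directions, up by 0.64 in PLZF/RARA (adjusted p = 0.00389) and down by 0.60 in PML/RARA (adjusted p = 1.58e-05). The treated difference was -1.27 ± 0.10 (adjusted p = 1.24e-12) and the difference in RA effect -1.24 (adjusted p = 4.43e-05). Pecam1 kept its class in all 18 fits that left out 1 array and in all 9 other settings.

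Kit, the stem cell factor receptor of progenitors, was at 10.50, 10.20, 10.49 and 10.47 in treated PLZF/RARA and at 8.70, 9.26 and 9.50 in treated PML/RARA, with no overlap. The treated difference was -1.26 ± 0.16 (adjusted p = 6.86e-08), from an RA effect of -1.29 in PML/RARA (adjusted p = 1.13e-07) and -0.31 in PLZF/RARA (adjusted p = 0.55). The difference in RA effect, -0.98, was close to the threshold (adjusted p = 0.0436), and 6 of 18 fits that left out 1 array kept the class. With the fixed replicate block it missed the threshold (adjusted p = 0.056). Cd34, another progenitor marker, fell in both leukaemias, by 1.38 and 1.53, and ended 0.65 ± 0.14 higher in PML/RARA (adjusted p = 0.000293). Among 20 stem and progenitor genes, 6 were higher and 6 lower in treated PML/RARA (19.4% and 17.9% of all genes), so this list had no common direction.

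Ifi202b, an interferon-inducible gene of the p200 family, was lower in treated PML/RARA by 1.75 ± 0.19 (adjusted p = 2.24e-09) on a rise of 1.25 in PLZF/RARA. Unlike the interferon list above, it was higher in PLZF/RARA. Mthfd1l, a mitochondrial folate enzyme gene, and Dnmt3b, a de novo DNA methyltransferase gene, were lower by 1.29 ± 0.13 (adjusted p = 1.07e-09) and 0.54 ± 0.06 (adjusted p = 2.04e-08), with called falls in PML/RARA, and 8 of 18 fits that left out 1 array kept Mthfd1l in this class, 15 Dnmt3b and 16 Ifi202b. Of 18 corepressor and chromatin silencing genes, 10 were lower and 1 was higher in treated PML/RARA (17.9% and 19.4% of all genes), with a median of -0.20, against 1 and 1 without RA. The count of lower genes was 6 without treated PLZF/RARA array 3 and 7 without array 1 or 2, and 2 members had a called difference in RA effect. The lower ones included Hdac2, at -0.69 ± 0.11 (adjusted p = 4.71e-06), and the RA-induced corepressor gene Nrip1, at -0.81 ± 0.10 (adjusted p = 5.31e-08), and the higher one was Tbl1xr1, at 0.53 ± 0.07 (adjusted p = 1.44e-07).

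**Figure D3:**
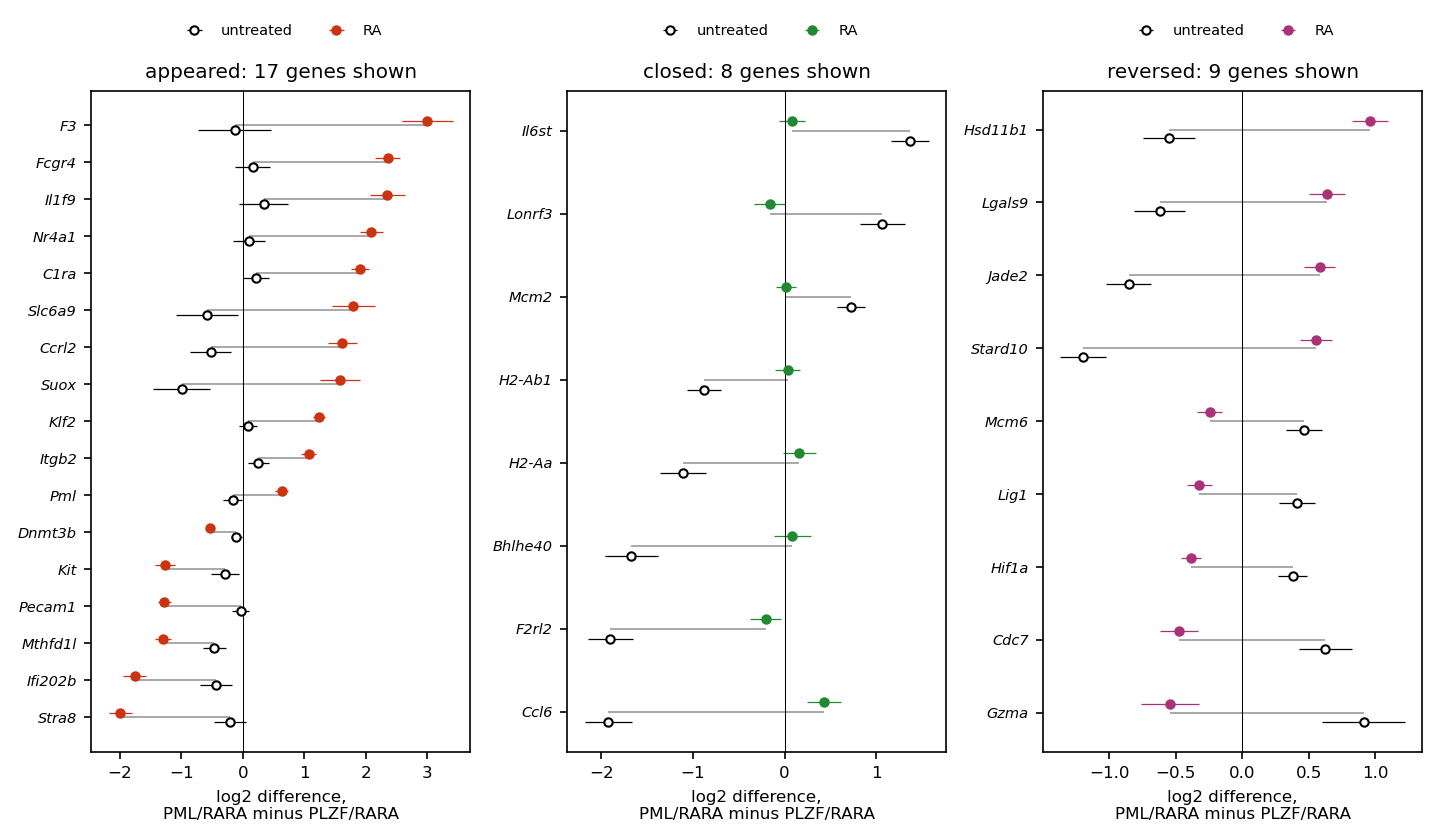
Log2 difference between PML/RARA and PLZF/RARA without RA (open circles) and under RA (filled circles) at 12 h for the genes given here whose difference appeared (17 genes), closed (8) or was reversed (9); bars are standard errors of the fit. F3 and Fcgr4 move furthest right of zero and Stra8 furthest left among those that appeared, while Ccl6 starts at -1.92 and Stard10 at -1.20 without RA. Grey lines join the 2 values of a gene.

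Closing ran mainly in one direction in the deposited values: 95 of the 144 genes were lower in untreated PML/RARA and 49 higher. With the arrays quantile normalized again 193 genes closed, and their direction was not counted. The chemokine gene Ccl6 was at 8.79, 8.34, 8.63 and 8.34 in untreated PML/RARA and at 10.34 and 10.56 in untreated PLZF/RARA. Under RA it reached 11.16, 11.90 and 12.21 (lowest, median and highest) against 11.50, 11.31, 11.11 and 11.57, and the groups overlapped. An untreated difference of -1.92 (adjusted p = 4.93e-07) was followed by 0.43 ± 0.18 (adjusted p = 0.061) after rises of 3.28 and 0.92. Without treated PML/RARA arrays 1 and 2 the treated difference became 0.61 (adjusted p = 0.00352), so it was then reversed.

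Bhlhe40, an RA-inducible repressor known from clock and hypoxia responses, closed from -1.67 to 0.09 ± 0.20 (adjusted p = 0.77), on a rise of 2.33 in PML/RARA. F2rl2, the thrombin receptor subunit PAR3, closed from -1.90 to -0.21 ± 0.17 (adjusted p = 0.35) by a fall of 1.32 in PLZF/RARA (adjusted p = 0.000656). The class II histocompatibility genes H2-Aa and H2-Ab1, named here after their values were seen, closed from -1.11 to 0.16 and from -0.88 to 0.03, and lost this class when untreated arrays of 6 h were added. Closing thus had more than 1 form, with the movement in either leukaemia.

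Of the 49 genes higher in untreated PML/RARA, Il6st, the signalling subunit gp130 of the interleukin 6 family receptors, was at 9.27, 9.79, 9.89 and 9.93 against 8.34 and 8.36 without RA. Under RA it was at 8.03 to 8.78 against 8.43, 8.76, 8.75 and 7.94, a difference of 0.08 ± 0.14 (adjusted p = 0.69), after a fall of 1.17 in PML/RARA. Lonrf3, a RING finger gene, closed from 1.07 to -0.16 in the same way. The replication helicase gene Mcm2, also named after its values were seen, closed from 0.72 to 0.01, and 12 of 18 fits that left out 1 array kept it in this class.

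Among the 37 reversed genes, 27 ended higher in PML/RARA. Stard10, a lipid transfer protein gene, was at 8.56, 8.74, 8.58 and 8.42 in untreated PML/RARA against 9.75 and 9.79, and at 10.20, 10.66 and 10.78 under RA against 9.89, 10.21, 9.87 and 10.12. PML/RARA thus went from below to above, with the treated groups touching at 10.20 and 10.21. The difference went from -1.20 (adjusted p = 1.74e-06) to 0.55 ± 0.12 (adjusted p = 0.000383), on an RA effect of 2.00 in PML/RARA and 0.25 in PLZF/RARA. Jade2, a histone acetylation scaffold gene, went from -0.85 to 0.58, the galectin gene Lgals9 from -0.62 to 0.64, and the cortisone reductase gene Hsd11b1 from -0.55 to 0.96. Each of the 3 had a called RA effect in PML/RARA (1.34, 1.42 and 2.14) and none in PLZF/RARA. The reversal of Hsd11b1 was the least firm of them, with an untreated adjusted p of 0.0444 and overlapping untreated groups. It was kept in 6 of 9 other settings and 14 of 18 fits that left out 1 array, and with untreated arrays of both times or the random replicate block the difference appeared instead.

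In the other direction, 10 genes ended lower in PML/RARA, among them the replication kinase gene Cdc7 (0.63 to -0.47), the DNA ligase gene Lig1 (0.41 to -0.32), Mcm6 (0.46 to -0.24) and Hif1a, the hypoxia factor gene (0.38 to -0.38). The first 3 act in DNA replication and fell in PML/RARA by 0.91, 0.68 and 0.59, while Hif1a rose by 0.52 in PLZF/RARA (adjusted p = 0.00264) and fell by 0.24 in PML/RARA (adjusted p = 0.0224). The granzyme gene Gzma, a marker of T and NK cells, was nominally reversed (0.91 to -0.54), with a treated adjusted p of 0.0496, and 5 of 9 other settings and 5 of 18 fits that left out 1 array kept it in this class. Mcm6, named after its values were seen, had a treated adjusted p of 0.0414, and 9 of 18 fits that left out 1 array kept its class. Of those fits, 15 kept the class of Cdc7, 14 that of Lig1 and 17 that of Hif1a. With the random replicate block neither Gzma nor Mcm6 had a called treated difference (adjusted p = 0.104 and 0.0947).

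Among regulators of granulocyte maturation, Cebpe and Cebpa had overlapping treated values. Cebpe, the factor of the late granulocytic programme, was at 11.68, 11.95, 11.86 and 11.83 in treated PLZF/RARA and at 11.60, 11.82 and 11.98 in treated PML/RARA. The groups overlapped, with a treated difference of -0.03 ± 0.10 (95% interval -0.22 to 0.17; adjusted p = 0.86), and both leukaemias had risen, by 1.39 and 0.83. Cebpa, the factor that opens the granulocytic lineage, differed by -0.12 ± 0.11 (95% interval -0.34 to 0.10; adjusted p = 0.39) after rises of 1.09 and 0.75. Without RA both were lower in PML/RARA, by 0.58 (adjusted p = 0.00192) and 0.46 (adjusted p = 0.0299). Of 19 myeloid transcription factor genes, 6 were higher and 3 lower in treated PML/RARA (19.4% and 17.9% of all genes), with a median of 0.05, and no difference in RA effect was called (2.93% of all genes). Without treated PLZF/RARA array 4 there were 2 such calls, and 1 with the random replicate block.

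Of 22 secondary granule and mature neutrophil genes, 13 were higher and 1 was lower in treated PML/RARA (19.4% and 17.9% of all genes), with a median of 0.59. Without RA 11 were already higher and none lower (8.08% and 9.29% of all genes), with a median of 0.64. The integrin gene Itgam (CD11b) was at 11.52, 11.69 and 11.77 in treated PML/RARA and at 10.56, 10.73, 10.40 and 10.38 in treated PLZF/RARA. RA raised it by 1.18 and by 1.1, and a lead of 1.15 ± 0.11 (adjusted p = 2.31e-10) remained that was 1.08 without RA. The alarmin gene S100a9 had a lead of 0.94 ± 0.10 (adjusted p = 2.42e-09; 1.45 without RA). In primary granules, Mpo, Elane and Prtn3, which encode myeloperoxidase and the neutrophil serine proteases elastase and proteinase 3, were higher by 0.69 ± 0.05, 0.79 ± 0.12 and 1.33 ± 0.12 (adjusted p = 1.24e-12, 3.48e-06 and 8.85e-11). Ctsc, which encodes the protease that activates them, was lower by 1.39 ± 0.16 (adjusted p = 7.25e-09). The list of 14 had 6 genes higher and 6 lower (19.4% and 17.9% of all genes).

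Most genes of Myc and ribosome biogenesis were lower in treated PML/RARA. Of 26 Myc and ribosome biogenesis genes, 24 were lower in treated PML/RARA and none was higher (17.9% and 19.4% of all genes), with a median of -0.69, against 5 lower and none higher without RA and a median of -0.26. The mean level of the list was 8.99 to 9.49 in treated PML/RARA and 9.68 to 10.05 in treated PLZF/RARA, without overlap, and 9.61 to 9.73 on the untreated PML/RARA arrays and 9.94 on both untreated PLZF/RARA arrays. The list was thus lowest on treated PML/RARA arrays. Called differences in RA effect were rarer, with 1 gene lower in PML/RARA, Nolc1, in the fit of all arrays (1.15% of all genes). The count was 7 without treated PML/RARA arrays 1 and 2, 3 with the random replicate block, and 0 without treated PLZF/RARA array 1 or 3. RA lowered 22 of the 26 genes in PML/RARA and 0 in PLZF/RARA (11.7% and 1.57% of all genes). It raised none in either (9.88% and 2.46% of all genes).

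The nucleostemin gene Gnl3 was at 10.21, 9.75, 10.18 and 9.77 in treated PLZF/RARA and at 8.41, 8.79 and 9.31 in treated PML/RARA, 1.14 ± 0.13 lower (adjusted p = 1.15e-08). The pyrimidine synthesis enzyme gene Cad was lower by 0.91 ± 0.09 (adjusted p = 5.16e-10), the nucleolar gene Mybbp1a by 0.92 ± 0.11 (adjusted p = 1.64e-08) and Npm1, the nucleolar protein gene that is another rare partner of RARA, by 0.76 ± 0.10 (adjusted p = 1.06e-07). Gnl3, Cad and Mybbp1a were also called lower without RA, so their differences remained, with no called difference in RA effect. Their untreated estimates were -0.573, -0.561 and -0.555 with the random replicate block. Of 18 fits that left out 1 array, 14 kept the class of Gnl3, 16 that of Mybbp1a and 18 that of Cad. With untreated arrays of both times, the differences in RA effect of Gnl3 and Mybbp1a were called, at -0.76 (adjusted p = 0.00857) and -0.51 (adjusted p = 0.0333). Npm1 was not settled. Myc itself was at 12.31, 12.20, 12.40 and 12.11 in treated PLZF/RARA and at 11.49, 11.68 and 12.05 in treated PML/RARA. It was lower by 0.53 ± 0.10 (adjusted p = 4.98e-05), with 0.04 without RA and a difference in RA effect of -0.57 (adjusted p = 0.061; 0.0437 with the fixed replicate block).

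Of 37 cell cycle genes, 15 were lower and 2 higher in treated PML/RARA (17.9% and 19.4% of all genes) and 20 were not called, with a median of -0.24. Without RA 2 were lower and 9 higher (9.29% and 8.08% of all genes), with a median of 0.13. The RA effect was called as lower in PML/RARA in 5 members (1.15% of all genes) and as higher in none, and in 12 members without treated PML/RARA arrays 1 and 2. The count of lower genes under RA moved from 15 to 10 without treated PLZF/RARA array 3 and to 25 without treated PML/RARA arrays 1 and 2. The topoisomerase gene Top2a and the ribonucleotide reductase gene Rrm1 were lower by 0.52 ± 0.10 (adjusted p = 8.00e-05) and 0.55 ± 0.09 (adjusted p = 1.70e-05). Both were not settled, with no called difference in RA effect. Another probe set of Top2a, at -0.34, was not called (adjusted p = 0.0758). The higher pair were the cyclin D genes Ccnd1, at 0.39 (adjusted p = 0.00125), and Ccnd3, at 0.78 ± 0.12 (adjusted p = 3.46e-06), opposite to Ccnd2. Markers of erythroid cells, a lineage that divides in marrow, were higher in treated PML/RARA (below), and their part in these counts was not tested.

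The lists closest to the PML and p53 question of the study were mixed. Of 22 p53 target genes, 4 were higher and 7 lower in treated PML/RARA (19.4% and 17.9% of all genes), with a median of 0.00. Without treated PLZF/RARA array 3 the counts were 2 and 3. Without RA none was higher and 6 were lower (8.08% and 9.29% of all genes), with a median of -0.15. RA raised 9 and lowered 1 in PML/RARA (9.88% and 11.7% of all genes). In PLZF/RARA it raised 4 and lowered 1 (2.46% and 1.57% of all genes). The RA effect was called as higher in PML/RARA in 3 members and as lower in 1 (1.78% and 1.15% of all genes). Without treated PLZF/RARA array 3 these counts were 1 and 0. Of 13 PML nuclear body genes 5 were higher and 3 lower, with a median of -0.01, and 3 were higher without treated PLZF/RARA array 1, 2 or 3. Mdm2, the p53 target that encodes its ubiquitin ligase, was higher by 0.19 ± 0.07 (adjusted p = 0.0431), with overlap, and 5 of the 9 other settings kept its class (adjusted p = 0.0973 with the random replicate block). Of 19 apoptosis and Pim kinase genes, 4 were higher and 3 lower.

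**Figure D4:**
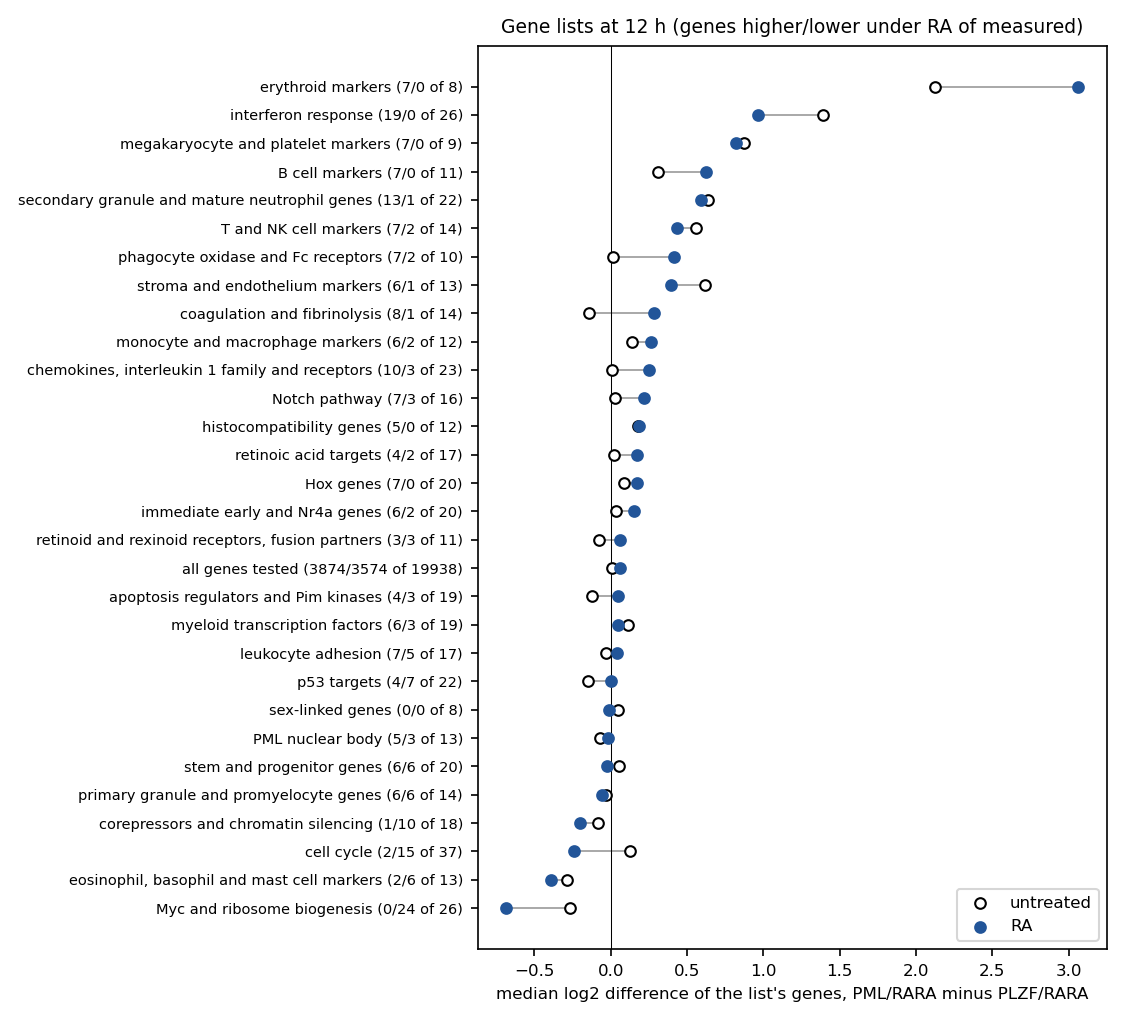
Median log2 difference between PML/RARA and PLZF/RARA over the measured genes of 29 lists and over all genes, without RA (open) and under RA (filled) at 12 h; the labels give how many genes were called higher and lower under RA, of how many measured. Erythroid markers and the interferon response lie furthest right, at 3.06 and 0.97 under RA, and Myc and ribosome biogenesis furthest left, at -0.69.

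The marrow of the leukaemias also differed in markers of other cells. Of 8 erythroid markers, 7 were higher and none was lower in treated PML/RARA (19.4% and 17.9% of all genes), with a median of 3.06. Without RA 5 were higher and none was lower (8.08% and 9.29% of all genes), with a median of 2.12. Slc4a1, the red cell anion exchanger gene, was at 8.07, 7.79, 6.26 and 6.71 in treated PLZF/RARA and at 10.21, 11.24 and 12.09 in treated PML/RARA (3.98 ± 0.35, adjusted p = 3.82e-11). The mean level of the list was 8.60 to 10.38 in treated PML/RARA and 6.46 to 7.20 in treated PLZF/RARA, without overlap. The haem synthesis gene Alas2, the carbonic anhydrase gene Car2 and the Rh-associated glycoprotein gene Rhag had treated differences between 3.75 and 3.91. The part of erythroid cells in the differences of other genes was not tested.

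The platelet and B cell markers that were called were all higher in treated PML/RARA, while T and NK cell markers went both ways. Of 9 megakaryocyte and platelet markers 7 were higher and none lower in both states. Over all genes the shares higher and lower were 19.4% and 17.9% under RA, and 8.08% and 9.29% without it. The platelet factor genes Pf4 and Ppbp were at 1.02 ± 0.20 (adjusted p = 7.66e-05) and 1.01 ± 0.18 (adjusted p = 2.43e-05) under RA. Of 11 B cell markers 7 were higher and none lower under RA, and none was called without it, with Cd79a of the B cell receptor at 1.43 ± 0.33 (adjusted p = 0.000762) and the pre-B gene Vpreb3 at 1.02 ± 0.26 (adjusted p = 0.0023). No B cell marker had a called difference in RA effect, and without treated PLZF/RARA array 2 the count of higher markers was 4. Of 14 T and NK cell markers 7 were higher, 2 were lower, Gzma among them, and 5 were not called under RA. Without RA 8 were higher and 1 was lower. The T cell receptor component Cd3g was higher under RA by 2.17 ± 0.20 (adjusted p = 5.26e-11). The mean level of the T and NK list was 7.27 to 7.41 in treated PML/RARA and 6.76 to 6.95 in treated PLZF/RARA.

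Markers of eosinophils, basophils and mast cells leaned to the PLZF/RARA side, with 6 of 13 lower and 2 higher in treated PML/RARA (17.9% and 19.4% of all genes). The eosinophil peroxidase gene Epx and the basophil protease gene Prss34 were lower by 1.68 ± 0.35 (adjusted p = 0.000224) and 1.84 ± 0.21 (adjusted p = 8.95e-09). Macrophage genes split, with the lysosomal gene Cd68 higher by 1.43 ± 0.09 (adjusted p = 1.44e-14) and Adgre1 lower by 1.18 ± 0.15 (adjusted p = 8.97e-08). None of these lists had a called difference in RA effect except for Gzma in the T and NK list.

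**Figure D5:**
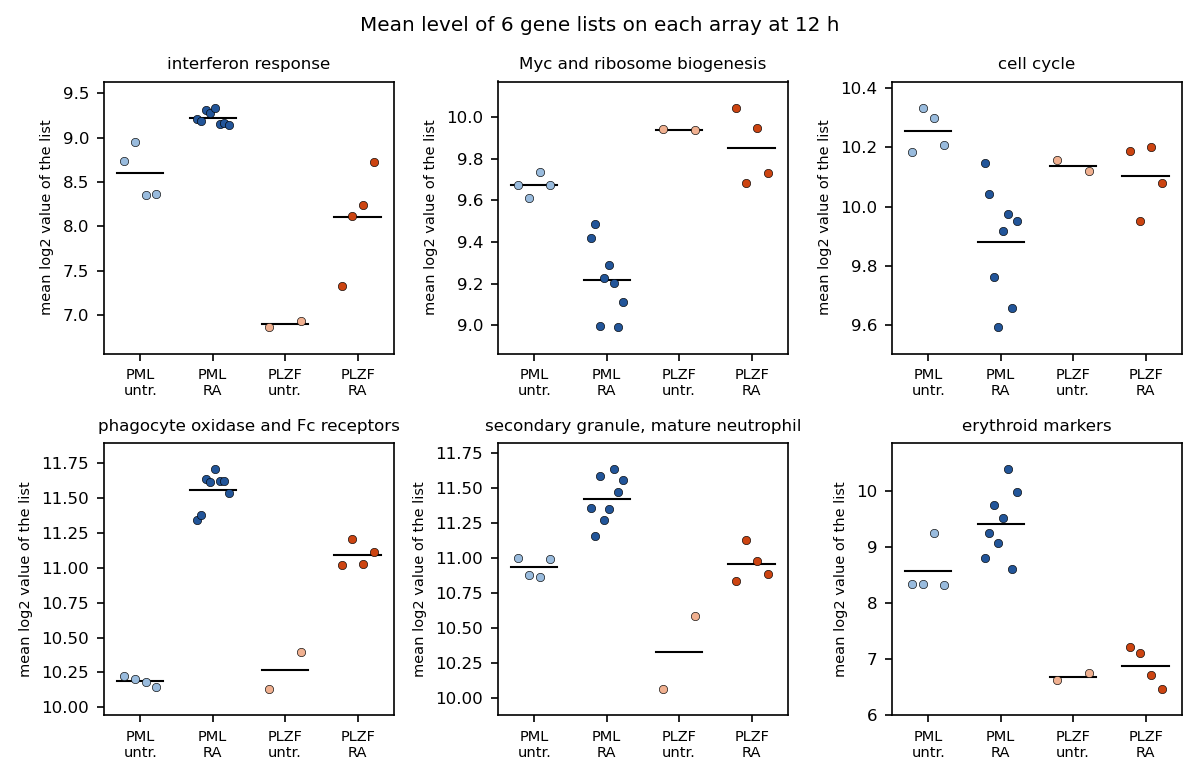
Mean log2 value of the measured genes of 6 lists on each of the 18 arrays at 12 h, by fusion and treatment; points are arrays, bars are group means, and each panel has its own y axis. Interferon response and erythroid markers separate the leukaemias with and without RA, the Myc list is lowest on the treated PML/RARA arrays (8.99 to 9.49), and phagocyte oxidase and Fc receptor genes rise in both and furthest in PML/RARA.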

How the data were processed

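The deposited table holds the authors' log2 expression values for 35556 probe sets per array, and the submitters' processing notes name RMA and the affy package without versions. Of the probe sets, 21789 had 1 gene symbol, 1621 had several and 12146 were not listed. For genes with several probe sets the brightest on average was used, which gave 19938 genes, with no filter on low values. With limma 3.58.1 in R 4.3.3, the 36 transgenic arrays were fitted together (lmFit, eBayes) with 8 groups of fusion, treatment and time (6 h or 12 h) and an additive batch term, since 4 of the 6 h arrays were in batch 2. Tests were two-sided, adjusted by Benjamini-Hochberg over all genes and called below 0.05. The fit had 27 residual degrees of freedom, and its median residual SD was 0.15. The number of arrays limits the precision. Values after ± are standard errors of the fit.

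The naming rule took the 15 largest called treated differences in each direction, 6 genes per class and direction, up to 4 called genes per list and a panel of 22 genes, of which 20 were measured and 2 were not analysed here. It passed over clones, histone clusters, olfactory receptors, small RNAs and antigen receptor segments, and a selection of its genes is given. Genes named for a list's count alone, and those marked as such, were chosen after their values were seen. The 29 lists held 522 genes, 463 of them measured. The members and lists were chosen with earlier results of these data known. The alternatives varied the arrays in the fit, the batch term, the normalization, the prior, array weights, the use of probe sets, dim genes and the untreated arrays, and left out each array in turn, and sets of title numbers were added as a replicate block after seeing the data. The fit and the rules were tested on simulated data.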

Additional observations from a re-analysis of the deposited data

Results flagged for a closer look

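In groups of 4 to 8 arrays, an array was picked out where its gap to the nearest other array was large for the range of its group (Dixon's test at the 95% level). This was so in 17 of 303 tests of the genes given above and in 6 of 87 tests of list levels, and chance alone flags about 1 in 20 groups. Treated PLZF/RARA array 2 was lowest for Car4 (12.27, next 12.88) and Kit (10.20, next 10.47). Treated PML/RARA array 6 was highest for Cyp11a1 (5.87, next 5.40). Untreated PML/RARA array 1 was lowest for Ccn3 (6.70, next 7.37) and Mcm2 (10.95, next 11.19). Untreated PML/RARA array 3 was highest for Slc4a1 (10.98, next 9.88) and Rhag (8.32, next 6.94). Untreated PML/RARA array 4 was lowest for Fcgr4 (6.45, next 6.77). Treated PLZF/RARA array 4 was lowest for Il1f9 (7.98, next 8.51). Treated PML/RARA array 6 was lowest for Pecam1 (9.57, next 9.92) and Tbl1xr1 (11.07, next 11.19). Treated PLZF/RARA array 4 was highest for Bhlhe40 (9.39, next 9.10) and Lgals9 (11.88, next 11.24). Untreated PML/RARA array 1 was highest for Bhlhe40 (7.41, next 6.79). Treated PML/RARA array 3 was lowest for Il6st (8.03, next 8.50). Treated PML/RARA array 1 was highest for Lonrf3 (7.87, next 7.27). Untreated PML/RARA array 2 was highest for Tbl1xr1 (11.38, next 11.14). Of the mean list levels, untreated PML/RARA array 1 had the lowest for retinoid and rexinoid receptors, fusion partners (8.63, next 8.69). Of the mean list levels, untreated PML/RARA array 3 had the highest for p53 targets (7.92, next 7.77), apoptosis regulators and Pim kinases (8.82, next 8.74) and erythroid markers (9.24, next 8.34). Of the mean list levels, treated PML/RARA array 4 had the highest for monocyte and macrophage markers (9.12, next 8.88) and stroma and endothelium markers (8.57, next 8.18).

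The RA effect differed between the leukaemias, by the test of that difference, in 44 of the 101 genes given with values. Differences are log2, PML/RARA minus PLZF/RARA. They were positive for F3 (3.13), Suox (2.57), Slc6a9 (2.38), Ccl6 (2.35), Fcgr4 (2.19), Ccrl2 (2.14), Il1f9 (2.01), Fzd3 (1.99), Nr4a1 (1.98), Bhlhe40 (1.76), Stard10 (1.75), C1ra (1.69), F2rl2 (1.69), Hsd11b1 (1.51), Jade2 (1.44), H2-Aa (1.27), Lgals9 (1.26), Klf2 (1.15), H2-Ab1 (0.91), Muc13 (0.88), Itgb2 (0.82), Pml (0.80) and Rara (0.58). They were negative for F13a1 (-1.95), Stra8 (-1.78), Ms4a6b (-1.53), Gzma (-1.46), Jag1 (-1.37), Ifi202b (-1.31), Il6st (-1.29), Pecam1 (-1.24), Lonrf3 (-1.23), C4a (-1.11), Cdc7 (-1.10), Kit (-0.98), Zbtb16 (-0.91), Csf3r (-0.85), Mthfd1l (-0.83), Hif1a (-0.76), Lig1 (-0.74), Hp (-0.73), Mcm2 (-0.71), Mcm6 (-0.71) and Dnmt3b (-0.43). The adjusted p-values stand beside the genes in the results where the test decides a class.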

How the results depend on the processing

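The treated difference kept its count within 1.5 times under every setting run, from 5812 to 7671 genes when 1 array was left out, and 2130 to 2532 at 1.5-fold or more. No treated difference of a gene given here changed sign with a call. Of 1110 values of these genes under other settings, 1093 kept their side of the threshold, and the exceptions were Mdm2, Mcm6 and Gzma, which lost the call, and Ccl6, which gained it. When 1 array was left out, 1184 of 1212 kept their side, and the exceptions were the same 4 genes and F2rl2. F2rl2 gained a call at -0.45 (adjusted p = 0.0347) without treated PLZF/RARA array 2.

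Classes moved more. Fitting only the arrays of the contrast gave 174 genes that appeared and 95 that closed, and array weights gave 408 that appeared. With untreated arrays of both times, 1752 differences in RA effect were called (554 of the 585 among them), 840 genes appeared, 413 closed and 101 were reversed. Without treated PML/RARA arrays 1 and 2, a setting chosen after seeing the data, the numbers were 987, 520 and 74 for the differences in RA effect, appeared and reversed. Leaving out 1 array gave 2037 to 3295 untreated differences, 200 to 774 differences in RA effect, 1609 to 2668 genes that remained, 67 to 384 that appeared, 59 to 180 that closed, 17 to 62 that were reversed and 3089 to 5641 not settled. The cause of these shifts was not tested. Centring each array on its median moved the share of treated differences that were higher in PML/RARA from 52% to 43%, and quantile normalization moved that of the differences in RA effect from 60.7% to 50.1%. The titles give every array the same replicate number, so the block was the set of title numbers, a choice made after seeing the data. As a random replicate block it gave 18 reversed genes, all among the 37, and kept every other count within 1.5 times. Among genes given with values it moved the class of Cebpe, Ncf1, Hsd11b1, Gzma, Myc, Mdm2 and Mcm6. The 2 untreated PLZF/RARA arrays limit every class.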

Other observations

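Homeobox, Notch and antigen presentation genes also differed between the treated leukaemias. Of 20 Hox genes and cofactors, 7 were higher in treated PML/RARA and none was lower (19.4% and 17.9% of all genes), with a median difference of 0.17. The count was 3 with quantile normalization, with each array centred on its median or without treated PLZF/RARA array 1, 4 without array 2 of that group or with the random replicate block, and 10 without array 4. The cofactor gene Pbx3 had the largest of these differences, at 0.71 (adjusted p = 5.62e-05 by limma). Of 16 Notch pathway genes 7 were higher and 3 lower (19.4% and 17.9% of all genes). The coactivator gene Maml1 was higher by 0.52 (adjusted p = 1.03e-07), and the feedback gene Nrarp was lower by 1.42. The DNA-binding partner gene Rbpj was lower by 0.34 on the probe set used (adjusted p = 0.00027). Its other probe set was at 0.05 and not called (adjusted p = 0.69), so the Rbpj difference rests on 1 probe set. Of 12 histocompatibility genes 5 were higher and none lower (19.4% and 17.9% of all genes), with the class II chaperone subunit gene H2-DMa at 0.92 (adjusted p = 2.87e-06).

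Of 13 stroma and endothelium markers 6 were higher and 1, Pecam1, was lower (19.4% and 17.9% of all genes). Without treated PLZF/RARA array 1, 3 were higher, without array 2 or with the random replicate block 4, and without array 3, 9. The niche chemokine gene Cxcl12 was higher in treated PML/RARA by 0.80 (adjusted p = 3.33e-05). In the coagulation list, S100a10, which binds plasminogen at the cell surface as the partner of annexin A2, was the only gene called lower, by 1.24 (adjusted p = 6.34e-12). Hipk2, a nuclear body kinase, was higher by 1.16 (adjusted p = 3.78e-11). Genes in these paragraphs were picked from their lists after their values were seen. Outside named genes, 2363 of 13767 probe sets without a single symbol also differed under RA when tested apart.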
